A study of Mus musculus with 8 samples.

Results

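The genes described here are 9 genes of myelin and of the cells that make it in the brain, the oligodendrocytes: Olig2, Sox10, Mbp, Mobp, Mag, Mog, Cnp, Cldn11 and Mal. They were taken by symbol from a table of raw read counts for 34299 mouse genes, and each symbol matched 1 row of it. The table covers 8 bulk RNA-seq libraries from whole brain of Mus musculus. Caveolin-1, encoded by Cav1, is a coat protein of the membrane pits called caveolae, and the study compared brains with and without the gene. The wild-type (WT) group at gestation day 15 had 3 libraries, the Cav1 knockout (KO) group at gestation day 15 had 3, and the Cav1 KO group at week 70 of age had 2. No wild-type brain at week 70 is analysed here, so age was compared within the KO only, and the difference between week 70 KO and day 15 WT holds genotype and age together. The labels give no strain or sex and do not describe the knockout allele. They name biological replicates for the fetal groups, and the extraction text attached to the week 70 libraries speaks of fetal brain only, so p-values there may measure a spread that is in part technical. The 2 week 70 libraries differ in Xist and Y-linked counts, given below, so they are not repeats of 1 sample.

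Oligodendrocytes arise from neural progenitors that switch on Olig2, become dividing precursors that carry Pdgfra, stop dividing, and wrap axons in sheets of compacted membrane. Sox10 follows Olig2 in the lineage and acts on the genes of myelin together with Myrf. In the mouse brain the first precursors appear before birth and myelin forms after it. Mbp zips the inner faces of the membrane together, Mobp lies in the same compact layers, Mag faces the axon on the innermost turn, Mog sits on the outermost surface, Cnp keeps channels of cytoplasm open, Cldn11 forms the tight junctions between turns, and Mal is a lipid raft protein that helps to carry cargo to the membrane. Several of them are made elsewhere too: Sox10 in neural crest cells and Schwann cells, Cldn11 in the arachnoid layer of the meninges, and Mal in epithelia.

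The sequence before the start site is shown for 4 of the myelin genes, because all 4 were higher at week 70, Mog by much less than the others, and 3 of the 4 hold a short match to the letters that MYRF binds. RefSeq windows on GRCm38.p6 were found for 7 of the 9 genes, as 9 windows. Sox10 and Mbp had no entry. In the lines that follow, each run reads 5′ to 3′ on the gene's own strand, and capitals mark matches on either strand to ACAAAG or ACAATG (the core of SOX sites), CTGGCAC or CTGGTAC (MYRF), and CAGATG or CAGCTG (an E-box). The SOX and MYRF motifs share no position, and CAGCTG is its own reverse complement. Mobp is shown at chr9:120149492-120149741 (+ strand), Mag at chr7:30914923-30915172 (- strand, the start site farthest upstream of its 3), Cnp at chr11:100574689-100574888 (+ strand) and Mog at chr17:37023399-37023648 (- strand). The Cnp run holds 200 bases and stops short of the start, since the bases searched ran on to 100574938.
Mobp: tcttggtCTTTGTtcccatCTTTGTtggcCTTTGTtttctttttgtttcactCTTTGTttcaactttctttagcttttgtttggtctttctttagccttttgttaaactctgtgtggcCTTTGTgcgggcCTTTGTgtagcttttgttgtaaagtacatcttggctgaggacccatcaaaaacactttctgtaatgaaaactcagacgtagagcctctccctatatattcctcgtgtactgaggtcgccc
Mag: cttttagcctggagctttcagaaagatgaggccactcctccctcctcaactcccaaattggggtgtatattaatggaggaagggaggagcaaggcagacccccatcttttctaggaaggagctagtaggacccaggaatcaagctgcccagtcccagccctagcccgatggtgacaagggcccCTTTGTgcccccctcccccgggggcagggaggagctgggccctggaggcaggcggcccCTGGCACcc
Cnp: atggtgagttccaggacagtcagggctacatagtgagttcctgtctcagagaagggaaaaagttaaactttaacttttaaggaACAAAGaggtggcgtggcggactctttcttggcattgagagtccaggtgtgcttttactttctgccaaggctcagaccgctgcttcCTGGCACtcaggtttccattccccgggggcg
Mog: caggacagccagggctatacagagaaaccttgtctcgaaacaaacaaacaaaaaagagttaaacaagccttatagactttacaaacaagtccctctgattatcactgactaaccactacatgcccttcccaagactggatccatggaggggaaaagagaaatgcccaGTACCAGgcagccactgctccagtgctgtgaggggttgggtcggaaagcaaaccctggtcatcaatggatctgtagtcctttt
The Mobp run held ACAAAG, written on this strand as CTTTGT, 6 times, between 243 and 120 bases before the start. No other of the 32851 windows of 250 bases in the RefSeq table held it 6 times, and none held it more often. The same letters, or ACAATG, occurred at least once in 4 of the 7 genes (Cnp, Mag, Mobp and Olig2) and in 25.2% of all windows. The MYRF letters occurred in 3 of the 7 (Cnp, Mag and Mog) and in 5.93% of all windows. The E-box letters occurred in 0 of the 7 and in 25.5% of all windows. A gene was counted if any of its windows held a match, and Mag had 3 windows, whereas the percentages are of single windows. A match describes letters only, and binding was not measured.

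Library totals ranged from 14110031 to 20833397 counts, and all 3 day 15 KO libraries were shallower than the other 5. At these depths a gene with 0 counts could hold up to 3, which corresponds to between 0.143 and 0.206 CPM (the count of a gene scaled to the library's total, here with TMM factors), for counting error only. Cav1 had 218 to 367 counts in WT, 0 to 3 in day 15 KO and 1 to 5 at week 70, as the labels say. All 6 fetal libraries held at least 54531 counts of Xist and at most 4 counts of Y-linked genes. Of the week 70 libraries, replicate 1 held 7969 counts of Xist and 0 Y-linked counts, and replicate 2 held 4 and 2219, so the ages differ in sex make-up as well. The summed level of 10 meningeal fibroblast genes was 4554 CPM in WT replicate 1, 323 and 537 CPM in the other WT libraries, and 80.1 to 156 CPM in the day 15 KO libraries.

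In the WT fetus the 9 genes spanned a wide range. To set genes side by side, levels were divided by the merged length of all annotated exons, from 1704 bases for Mog to 8469 for Mbp. A gene whose transcripts leave out some of these exons is understated, so ranks between genes are approximate. On this scale Mog (11.3 CPM per kilobase), Cldn11 (10.02) and Olig2 (9.22) were highest, and their libraries overlapped. Cnp followed at 5.08, Mbp at 3.55 and Sox10 at 1.65, each apart from the next. Mal (0.361) and Mag (0.295) overlapped each other, and Mobp was lowest at 0.0420, on 2, 8 and 7 counts in the 3 libraries. In the day 15 KO the order was Mog 14.2, Olig2 3.85, Cnp 3.02, Mbp 2.00, Cldn11 1.95, Mal 0.800, Sox10 0.696, Mag 0.346 and Mobp 0.0276 CPM per kilobase. There Mbp overlapped Cldn11 and Mal overlapped Sox10. Cldn11 thus had rank 2 in WT and rank 5 in the KO, while Mog had rank 1 in both fetal groups. All 9 genes together took 0.0118% ± 0.000915 (SD, n = 3) of the counts in WT and 0.00852% ± 0.000394 (SD, n = 3) in the day 15 KO.

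**Figure D1:**
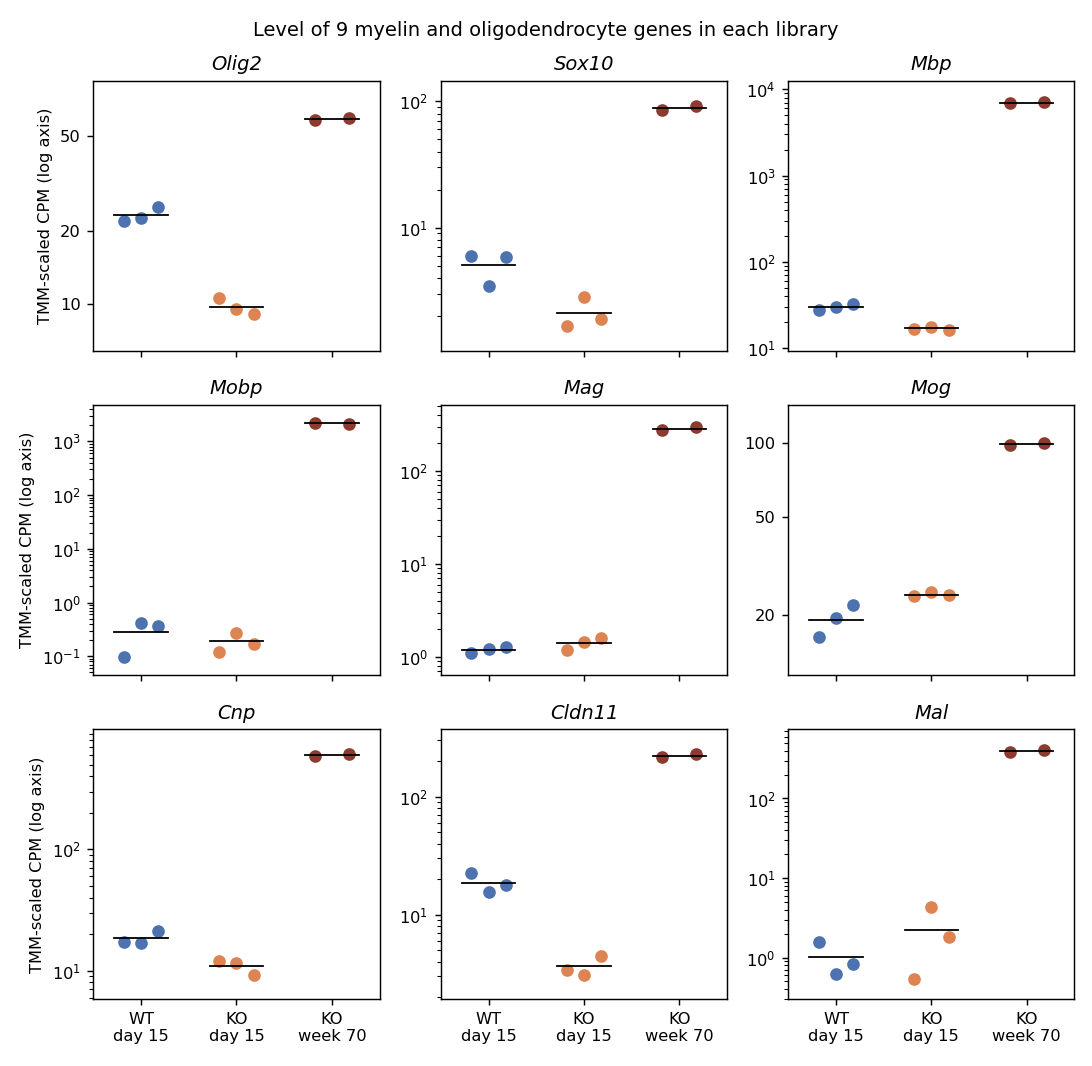
Level of each of the 9 genes in each library, in TMM-scaled CPM on a log axis that differs between panels, by group (WT day 15, n = 3, KO day 15, n = 3, KO week 70, n = 2). Points are libraries and lines are group means. The week 70 points lie above all fetal points in all 9 panels, and Cldn11 and Olig2 show the fetal groups apart, with KO below WT.

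The first comparison asked whether loss of Cav1 changed these genes in the fetal brain. At gestation day 15 both transcription factors and 3 myelin genes, Mbp, Cnp and Cldn11, were lower in the KO, and Mog was higher. In edgeR's quasi-likelihood test with Benjamini-Hochberg adjustment at 0.05, 8 of the 9 genes had enough counts to test. Of these, 5 were called lower and 1 higher, that is 6 of 8, where 62.6% of the 19147 genes tested were called (32.5% lower and 30.1% higher). The CPM of all 6 called genes did not overlap between genotypes, as was so for 68.5% of all genes tested (34.5% lower and 34.0% higher in the KO). The median log2 fold change of the 8 was -0.70, beside 0.03 over all genes. In bulk tissue, fewer cells of a type and less RNA per cell cannot be told apart.

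Olig2, the factor that starts the lineage, was at 22.1, 22.7 and 25.2 CPM in the WT libraries and at 10.6, 9.55 and 9.10 CPM in the day 15 KO libraries. Every KO library was below every WT library. Its log2 fold change was -1.17 (SE 0.10, edgeR adjusted p = 3.77e-06), a level 2.25-fold lower. Sox10 was at 5.91, 3.42 and 5.81 CPM in WT and at 1.67, 2.82 and 1.88 CPM in the KO. The gap was narrow, between WT replicate 2 and KO replicate 2, and the log2 fold change was -1.15 (SE 0.27, edgeR adjusted p = 0.0037). Summed levels of marker genes of several other cell types were also lower in the KO, with no overlap. The 4 neural progenitor genes (Pax6, Nes, Sox2 and Vim) summed to 959 to 1068 CPM in WT and 340 to 368 CPM in the KO, with all 4 genes lower. The 4 astrocyte genes summed to 173 to 212 and 82.0 to 96.4 CPM, the 5 microglia genes to 35.5 to 49.9 and 20.5 to 23.4 CPM, and the 6 neuron genes to 5281 to 5870 and 4315 to 4383 CPM. Within these 3 lists not every gene was lower. The part of these cells in the falls of Olig2 and Sox10 was not tested.

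Among the myelin proteins Cldn11 had the largest difference. It was at 22.5, 15.7 and 17.99 CPM in WT and at 3.41, 3.09 and 4.44 CPM in the KO, and every WT library was above every KO library. The log2 fold change was -2.27 (SE 0.18, edgeR adjusted p = 1.62e-06), a 4.82-fold lower level. Mbp stood at 28.1, 29.7 and 32.3 CPM in WT and at 16.9, 17.6 and 16.4 CPM in the KO. These groups were tight and apart, with a log2 fold change of -0.73 (SE 0.09, edgeR adjusted p = 3.55e-05). Cnp was at 17.4, 16.8 and 21.3 CPM in WT and at 12.1, 11.7 and 9.28 CPM in the KO. It fell by 0.66 on the log2 scale (SE 0.13, edgeR adjusted p = 0.00141), with no overlap. Exons of Cnp share 154 bases with Dnajc7 on the other strand, which had 1819 to 3933 counts per library, and the use of strand in counting is not given in the sources used here, so the 2 cannot be told apart there.

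Mog went the other way. Its 3 WT libraries were at 16.3, 19.4 and 22.0 CPM and its KO libraries at 23.9, 24.7 and 24.2 CPM. All KO values were above all WT values, and the log2 fold change was 0.42 (SE 0.11, edgeR adjusted p = 0.00731). Mag was at 1.10, 1.22 and 1.29 CPM in WT and at 1.20, 1.44 and 1.59 CPM in the KO. These groups overlapped, and the log2 fold change of 0.32 (SE 0.26) did not pass (edgeR adjusted p = 0.300). Mal varied widely, from 12 to 33 counts among WT libraries (33, 12, 16) and from 9 to 78 among KO libraries (9, 78, 32). Its log2 fold change of 1.23 (SE 0.60, edgeR adjusted p = 0.0961) did not pass either, and 1 library set its size: without KO replicate 2 it was 0.32 (adjusted p = 0.652). It passed without KO replicate 1 (log2 fold change 1.68, adjusted p = 0.0113) or without WT replicate 1 (1.70, adjusted p = 0.0437). Mobp, at 2 to 8 counts per WT library and 2 to 5 per KO library, was too low to be tested. A fit without the filter gave -0.58 (SE 0.72, edgeR adjusted p = 0.580), so a difference was not detectable at this depth.

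**Figure D2:**
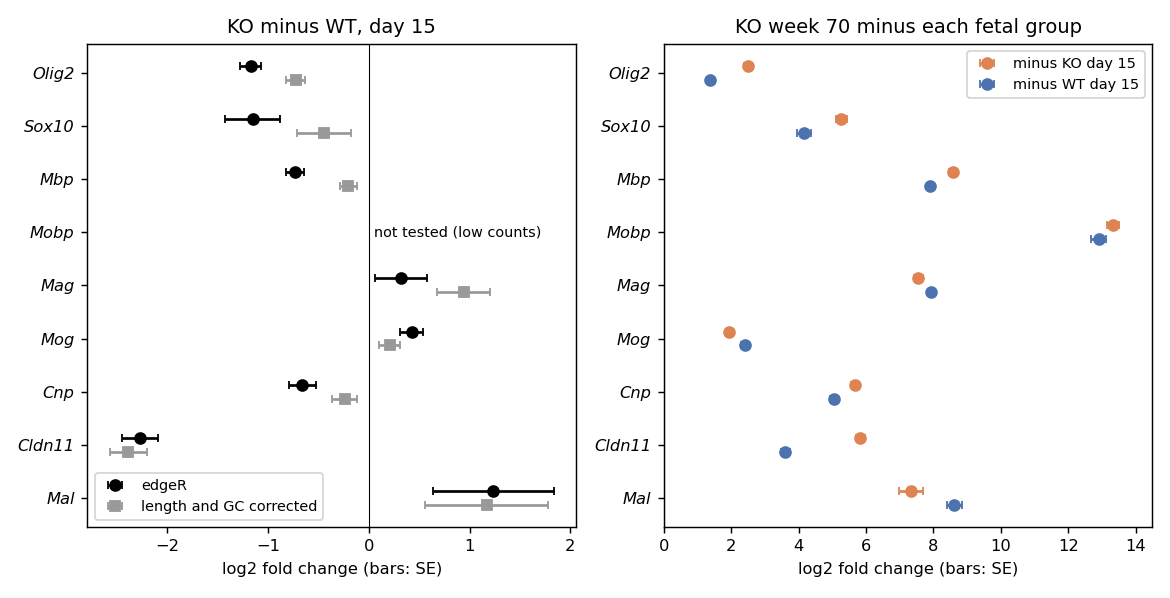
Log2 fold changes with their SE. On the left, KO against WT at day 15 (3 against 3 libraries) from edgeR (black) and after correction for exon length and GC content (grey): Cldn11 is near -2.3 in both, while Mbp, Cnp and Sox10 move toward 0. On the right, week 70 KO against day 15 KO (orange) and against day 15 WT (blue), with all 9 genes above 0 and Mobp highest.

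Part of this depended on a trend across all genes. Over 19050 genes the log2 fold change between genotypes was correlated with exon length (Spearman's rho -0.34) and with GC content (rho -0.48), as a description across genes, which are not independent. When this trend was removed, 3 of the 8 genes were called, where 10197 of the 19050 were (5115 lower and 5082 higher). Cldn11 was at -2.39 (SE 0.18, edgeR adjusted p = 3.35e-06). Olig2 moved from -1.17 to -0.73 (SE 0.09, adjusted p = 0.000117) and was still called. Mag, at 0.94 (SE 0.26, adjusted p = 0.0123), was then called higher. Sox10 (-0.45, adjusted p = 0.187), Mbp (-0.20, adjusted p = 0.0628), Cnp (-0.24, adjusted p = 0.123) and Mog (0.21, adjusted p = 0.128) kept their direction and were no longer called. The cause of the trend was not tested, and it was removed whatever its source. Upper-quartile scaling, which moved the median of all genes by 0.17, left each call and direction of the 8 genes as it was, though it changed the share of higher genes among all those called from 48.1% to 60.8%.

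**Figure D3:**
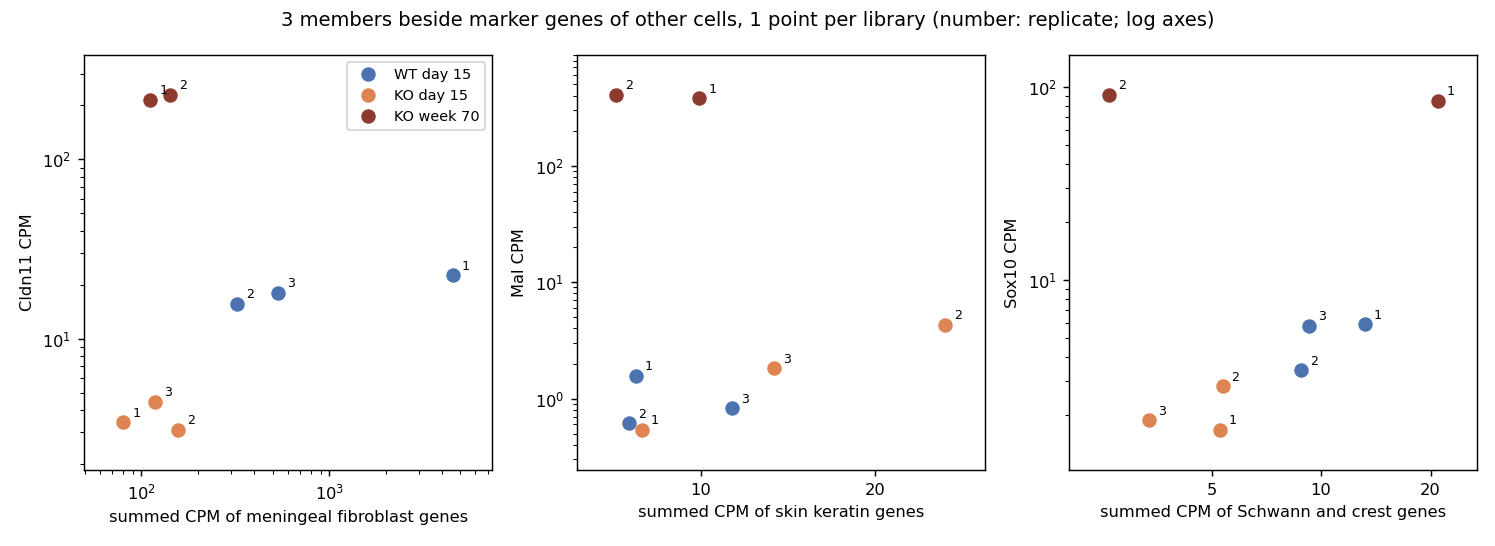
Level of Cldn11, Mal and Sox10 (TMM-scaled CPM) against the summed CPM of marker genes of meningeal fibroblasts (10 genes), skin (3 keratins) and Schwann and neural crest cells (4 genes), both on log axes, 1 numbered point per library. In the fetal groups the WT libraries lie to the upper right of the KO libraries for Cldn11 and Sox10, and Mal is highest in KO replicate 2, where the keratins are highest.

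Markers of other cells that make some of these proteins also differed between libraries. All 10 meningeal fibroblast genes were detected in every library, and their sums of 323 to 4554 CPM in WT and 80.1 to 156 CPM in the day 15 KO did not overlap. The 3 collagens Col1a1, Col1a2 and Col3a1 make up most of each WT sum. Of the 10 genes, 6 were lower in every KO library than in every WT library (the collagens, Foxc1, Foxc2 and Aldh1a2), and the other 4 overlapped, with higher KO means for Dcn (27.1 against 25.7 CPM) and Ogn (21.1 against 15.6 CPM). Without WT replicate 1, where Col1a1 alone had 49885 counts, the log2 fold change of Cldn11 was -2.14 (edgeR adjusted p = 7.35e-07), with the sums of the other WT libraries still above those of the KO. The part of meningeal cells in the Cldn11 difference was not tested. For Sox10, the 4 Schwann cell and neural crest genes in the table summed to 8.83 to 13.2 CPM in WT and to 3.36 to 5.36 CPM in the KO. Foxd3, a crest factor, had at least 14 counts in each WT library and at most 6 in each KO library. The 6 melanocyte genes, another crest lineage, summed to 9.51 to 10.1 CPM in WT and to 5.63 to 6.54 CPM in the KO, with Tyr at 0 in all. For Mal, the day 15 KO libraries held 1, 97 and 38 counts of the skin keratin Krt5 and 1, 71 and 27 of Krt14, in the same order of libraries as Mal. In WT the order differed, with 13, 0 and 37 counts of Krt5 where Mal was highest in replicate 1. The 3 keratins summed to 7.50 to 11.3 CPM in WT and to 7.90 to 26.5 CPM in the KO. The part of these cells in the Sox10 and Mal values was not tested.

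The rest of the lineage was read from 54 other genes in 6 lists by role. At day 15, 48 of them had enough counts, and 25 were called lower and 8 higher in the KO, beside 32.5% lower and 30.1% higher among all genes (62.6% called). Their median log2 fold change was -0.49, beside 0.03 over all genes. Of the genes that specify the lineage or mark its precursors 8 of 9 were lower and 1 higher. Their median was -1.35, the lowest of the 6 lists. After the length and GC correction 8 were lower and 0 higher, where 5115 of all 19050 genes were lower and 5082 higher. Sox9, a glial fate factor, was at 86.4 ± 2.91 CPM in WT and 19.1 ± 1.17 CPM in the KO (SD, n = 3 each), a log2 fold change of -2.09 (SE 0.07, edgeR adjusted p = 1.59e-08). Cspg4, the NG2 proteoglycan of precursors, fell by 1.97 (SE 0.20), Pdgfra, their growth factor receptor, by 1.35 (SE 0.23), and Olig1, the neighbour and partner of Olig2, by 1.14 (SE 0.19). The correction took Cspg4 to -0.92 (SE 0.18, adjusted p = 0.00193). The WT libraries had 1218, 557 and 799 counts of Pdgfra and 459, 278 and 364 of Cspg4, in the order of their meningeal fibroblast sums. In the KO libraries the order of both genes differed from that of the sums. The part of meningeal cells in the falls of Pdgfra and Cspg4 was not tested. The 1 gene of the list that was higher, Lhfpl3, had a log2 fold change of 0.57 (SE 0.12), and -0.0026 (adjusted p = 0.987) with the correction.

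Of 8 tested regulators of differentiation and genes of newly formed oligodendrocytes, 5 were lower and 0 higher. That share called was close to the 62.6% of all genes, of which 32.5% were lower and 30.1% higher. Tcf7l2, a Wnt pathway factor, fell by 1.23 (SE 0.09). Gpr17, a receptor of cells about to mature, fell by 1.10 (SE 0.26), and Myrf by 1.27 (SE 0.23) on 79, 55 and 68 counts in WT and 26, 21 and 21 in the KO. With the length and GC correction Gpr17 (edgeR adjusted p = 0.0779) and Myrf (edgeR adjusted p = 0.171) were no longer called. In that fit 3 genes of the list were lower, where 5115 of all 19050 genes were lower and 5082 higher. The inhibitors of differentiation were lower as well, 5 of 6, with 1 higher. Lingo1, a brake on myelination, fell by 1.62 (SE 0.10) and Sox6 by 0.79 (SE 0.07), and Id2 was higher by 0.73 (SE 0.06). The correction took Lingo1 to -0.91 (SE 0.08, adjusted p = 1.16e-05).

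The proteins of myelin and of its contact with the axon had 6 higher and 3 lower of 15 tested and a median of 0.31, a share called close to the 62.6% of all genes. Cntn2 (-1.66, SE 0.06) and Nfasc (-0.84, SE 0.06), adhesion proteins that neurons make too, were lower. After the correction Cntn2 was at -0.83 (SE 0.05, adjusted p = 7.91e-07) and Nfasc at -0.03 (adjusted p = 0.601). Of the 4 tested genes of myelin lipid synthesis 0 were called by edgeR, 0 by DESeq2 and 0 at an unadjusted p under 0.05, with log2 fold changes from 0.06 to 0.21. Upper-quartile scaling called 2 of them higher, and the length and GC correction 2 higher and 1 lower. Among all genes that scaling called 7627 higher and 4915 lower of 19147. The correction called 5082 higher and 5115 lower of 19050. Among 6 enzymes, carriers and receptors of mature cells 4 were lower and 0 higher, led by Adamts4 (-1.72, SE 0.16), a protease, and Ndrg1 (-0.99, SE 0.08). That share called was also close to the 62.6% of all genes (32.5% lower), and 3 of the 6 were lower after the correction.

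**Figure D4:**
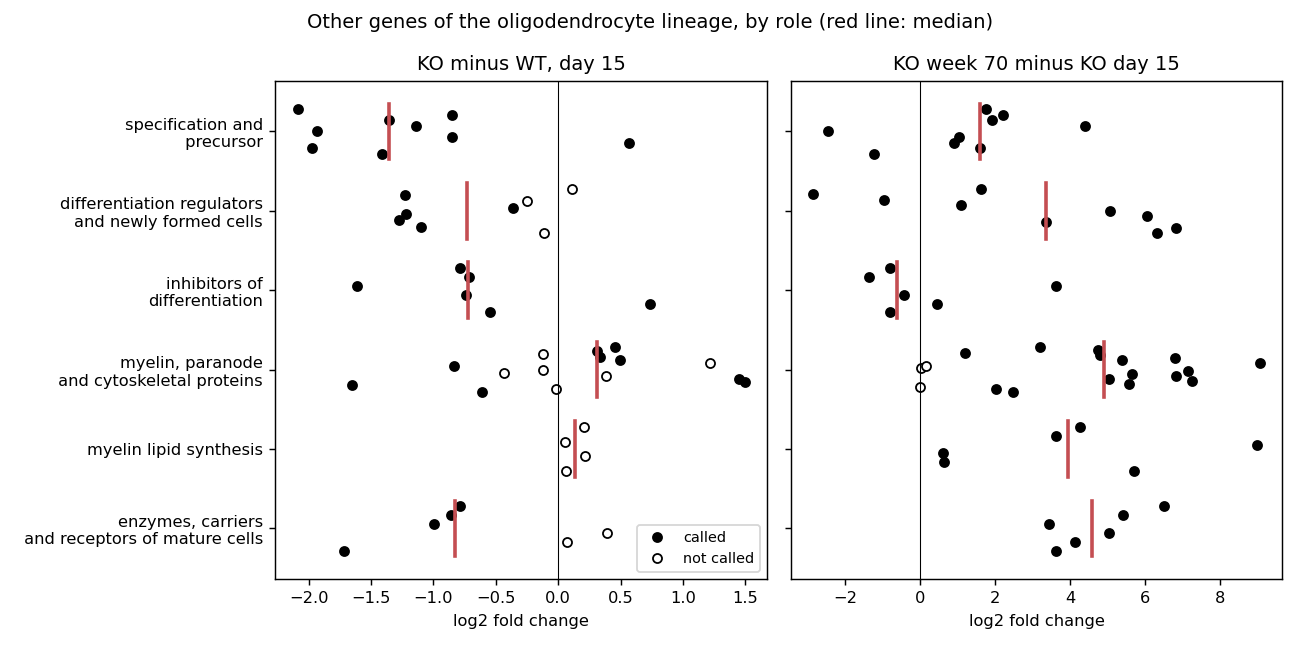
Log2 fold changes of the other lineage genes by role, for KO against WT at day 15 (left, 3 against 3 libraries) and week 70 KO against day 15 KO (right, 2 against 3). Filled points passed edgeR's adjusted p of 0.05, open points did not, and red lines are list medians. The specification list sits left of 0 at day 15 apart from 1 gene, and the medians of the 3 lower lists sit right of 0 with age.

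The second comparison asked how the same genes differed between fetal and aged KO brain. It shares the day 15 KO libraries with the first. All 9 genes were higher at week 70, and among the myelin proteins the difference ran from 3.80-fold for Mog to 10218-fold for Mobp. All 9 were called (edgeR adjusted p at most 1.48e-08), with no overlap, where 82.0% of 20000 genes tested were called and 37.6% were called higher and 44.4% lower. Groups that did not overlap were seen for 87.9% of all genes (40.2% higher and 47.8% lower). The median log2 fold change of the 9 was 5.83, beside -0.19 over all genes, and each direction and call held under all 13 alternatives. The length and GC correction lowered the values of Olig2 to 1.58, Sox10 to 4.03, Mag to 6.61, Cnp to 4.97 and Mobp to 12.70.

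Mobp had the highest fold change of all genes tested. It went from 0.120, 0.276 and 0.171 CPM in the fetal KO libraries to 2189 and 2144 CPM at week 70, a log2 fold change of 13.32 (SE 0.18), whose size rests on 2, 5 and 3 fetal counts. Mbp went from 16.9, 17.6 and 16.4 CPM to 6944 and 7057 CPM. This 385-fold difference (log2 8.59, SE 0.12) made it the highest of the 9 genes per kilobase, at 827 CPM per kilobase. Mag, at 1.20, 1.44 and 1.59 CPM before, was at 275 and 297 CPM, a log2 fold change of 7.56 (SE 0.13). Mal reached 379 and 407 CPM from 0.538, 4.31 and 1.82 CPM, with a log2 fold change of 7.34 and the widest error of the 9 (SE 0.36). Leaving out KO day 15 replicate 2 gave 8.25 for Mal, and Krt5 and Krt14 were at 0 in both week 70 libraries. Cldn11 went from 3.41, 3.09 and 4.44 CPM to 215 and 229 CPM (log2 5.83, SE 0.13). The meningeal fibroblast genes summed to 112 and 143 CPM in those 2 libraries, within the range of the day 15 KO. Of these 10 genes 5 were higher at week 70 without overlap, among them Foxc1 (means of 3.32 and 12.7 CPM) and Aldh1a2 (2.58 and 14.7 CPM), 2 were lower and 3 overlapped. Their part in the Cldn11 rise was not tested. Cnp was at 589 and 608 CPM against 12.1, 11.7 and 9.28 CPM (log2 5.67, SE 0.12).

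Mog stood apart from the other myelin proteins in how little it differed. It was at 23.9, 24.7 and 24.2 CPM in the fetal KO and at 98.1 and 99.5 CPM at week 70, a 3.80-fold difference (log2 1.93, SE 0.08, edgeR adjusted p = 6.48e-09). The next smallest value among the 7 myelin proteins was the 5.67 of Cnp. Per kilobase, Mog therefore moved from rank 1 of the 9 in both fetal groups to rank 7 at week 70. Of the factors, Sox10 went from 1.67, 2.82 and 1.88 CPM to 85.1 and 91.2 CPM (log2 5.27, SE 0.16). Olig2 went from 10.6, 9.55 and 9.10 CPM to 58.0 and 59.0 CPM (log2 2.49, SE 0.11). Olig2 had rank 3 per kilobase in the WT fetus, rank 2 in the KO fetus and rank 9 at week 70.

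**Figure D5:**
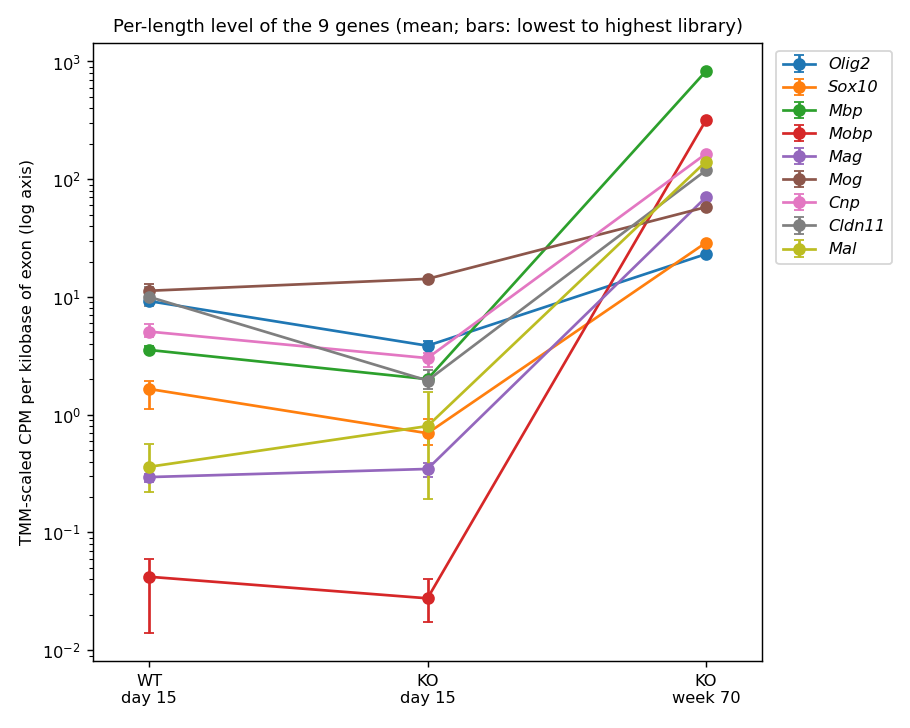
Mean TMM-scaled CPM per kilobase of merged annotated exons (log axis) of the 9 genes in the 3 groups. Bars run from the lowest to the highest library, and lines join the groups of 1 gene. Mog starts highest at 11.3 in WT day 15 and ends at rank 7 with 58.0, while Mobp starts lowest and ends at rank 2 with 316.

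At week 70 every gene was apart from its neighbours in the order: Mbp 827, Mobp 316, Cnp 164, Mal 141, Cldn11 119, Mag 70.3, Mog 58.0, Sox10 28.9 and Olig2 23.1 CPM per kilobase. The 9 genes took 0.840% ± 0.0113 (SD, n = 2) of all counts, of which Mbp alone took 0.539% ± 0.00782 (SD, n = 2). The 2 libraries, which differ in Xist and Y-linked counts, agreed closely on the 9 genes, with ratios of replicate 1 to replicate 2 from 0.928 for Mag to 1.02 for Mobp. Other markers agreed less between them: 3 choroid plexus genes summed to between 64.5 and 2321 CPM, and the 4 Schwann cell and neural crest genes to 20.95 CPM in replicate 1 and 2.60 CPM in replicate 2, with Egr2 at 291 and 22 counts.

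With age 43 of the 54 other lineage genes were called higher and 8 lower, where 37.6% and 44.4% of all genes were (82.0% called), with a median log2 fold change of 3.40 beside -0.19 over all genes. Of 18 myelin and axon contact proteins 15 were higher and 0 lower by edgeR and by DESeq2, and 15 had an unadjusted p under 0.05. The length and GC correction called 15 higher and 2 lower, Cntn2 (-0.71) and Nfasc (-0.28). Among all 19896 genes in that fit 7403 were called higher and 8304 lower. Opalin, a membrane protein of mature oligodendrocytes, had 0, 0 and 5 counts in the fetal KO and 889 and 878 at week 70 (log2 9.06, SE 0.36), and its fold rests on 1 fetal library. Gjb1, a gap junction protein, had a log2 fold change of 7.26 (SE 0.21). The 3 that did not pass were Nfasc (0.15), Cntn2 (0.01) and Jam3 (0.02). All 6 genes of myelin lipid synthesis were higher by edgeR, with the smallest values for Elovl1 (0.62) and Cers2 (0.63). Upper-quartile scaling called 5 of them. The length and GC correction also called 5, without Elovl1 (0.16, edgeR adjusted p = 0.394). Fa2h, which hydroxylates the fatty acids of galactolipids, was at 8.98 (SE 0.29) from 4, 0 and 2 fetal counts. Aspa, which frees acetate from N-acetylaspartate, was at 5.70 (SE 0.31). All 6 enzymes, carriers and receptors of mature cells were higher too, with the iron carrier Trf at 6.51 (SE 0.16) and the lipid receptor S1pr5 at 5.42 (SE 0.21). With the correction Fa2h was at 8.31, Aspa at 6.44 and S1pr5 at 4.63.

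Of 9 specification and precursor genes 7 were higher and 2 lower, with a median of 1.60. Olig1 (4.38, SE 0.14) and Sox8 (2.202, SE 0.13) led the list, Pdgfra was at 1.91 (SE 0.15), and Nkx6-1, a progenitor factor, was lower (-2.44, SE 0.65). Of 9 differentiation genes 7 were higher and 2 lower. Enpp6 (6.82, SE 0.38), Bcas1 (6.31, SE 0.17) and Myrf (6.05, SE 0.15), all used as marks of maturing cells, were among those higher, and Tcf7l2 (-2.85, SE 0.33) and St18 (-0.97, SE 0.16) were lower. The inhibitors were the only list of the 6 with more genes lower than higher, 4 against 2 and a median of -0.60. Sox5 fell by 1.36 (SE 0.09), whereas Lingo1 was higher by 3.62 (SE 0.10). The correction took Olig1 to 3.31, Sox8 to 1.59, Myrf to 5.17, Lingo1 to 2.61 and Nkx6-1 to -3.42, all still called.

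Against the WT fetus, the third comparison, all 9 genes were again higher at week 70 and did not overlap (edgeR adjusted p at most 5.87e-06), where 78.6% of 19465 genes were called, 36.7% higher and 41.9% lower, and 86.5% did not overlap (39.9% higher and 46.6% lower). It shares its libraries with the other comparisons and mixes genotype with age. The log2 fold changes were 1.36 for Olig2, 4.16 for Sox10, 7.90 for Mbp, 12.90 for Mobp, 7.93 for Mag, 2.40 for Mog, 5.05 for Cnp, 3.60 for Cldn11 and 8.62 for Mal. Cldn11, which was lower in the KO fetus, was 12.2-fold higher at week 70 than in WT and 56.9-fold higher than in the KO fetus. In the 54 other lineage genes 39 were higher and 11 lower, and the precursor list split evenly, with 3 higher and 3 lower and a median of 0.25. Opalin, at 0, 1 and 0 counts in WT, was at least 371.6-fold higher at week 70 than the floor of 3 counts per library allows.

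Genes of nearest pattern were sought among 12725 genes, which left out Olig2, Sox10, the 7 myelin proteins and the genes of the lists. The ranking therefore does not set the genes found against other genes of the lineage. Over the 8 libraries the pattern nearest to the mean of the 7 myelin proteins was that of Tuba4a. Its root mean square difference was 0.226 in centred log2 CPM, and Camk2a (0.227) and Zfp365 (0.250) followed. For the mean of Olig2 and Sox10 the nearest were Laptm4b (0.125), Abcb1a (0.144) and Tamalin (0.161). These genes share the low fetal and high week 70 level, and the 8 points come from 3 groups.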

How the data were processed

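RNA of 8 whole brain libraries was selected on poly-T beads and copied with random hexamers, per the labels' protocols. The authors deposited raw read counts per Ensembl gene. Per the submitters' processing notes, FastQC, cutadapt, Trimmomatic, HISAT2, featureCounts and edgeR were used, with builds GRCm38 and GRCm39. Their versions, the use of strand and the annotation are not given in the sources used here, so overlapping genes and near-identical copies are uncertain. The 9 genes and the role and marker lists were chosen with earlier results of these data known.

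The test was edgeR's (version 4.0.16, R 4.3.3) on the deposited counts (filterByExpr, TMM, two-sided quasi-likelihood F-test, Benjamini-Hochberg over all genes tested, threshold 0.05). Each comparison used only its 2 groups. SE is the log2 fold change divided by the square root of F. Levels are CPM with TMM factors over all 8 libraries. Exon length (all annotated exons of a gene, merged) and GC content (of its longest transcript) came from GENCODE M21. It held 97.3% of the table's identifiers. In the corrected fit, smooth terms of length and GC (mgcv 1.9.3) entered as offsets. Alternatives were DESeq2 1.42.0, RLE and upper-quartile scaling, no filter, all 8 libraries in one fit, a replicate block, and each library left out. The script was tested on simulated data.

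Named genes were all 9 genes, Olig1, Pdgfra and Myrf, and, per role list and comparison (genotype and age), the 2 called genes without overlap and with a mean of at least 50 counts that changed most. Others were named to complete a short count or as marker genes, after their values were seen. The 3 genes of nearest pattern used a prior count of 2. Replicates of every group differed beyond sampling noise. Of the 5 Schwann cell and neural crest genes listed, 4 matched a row by symbol. Some genes of the lists are not reported here.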

Additional observations from a re-analysis of the deposited data

How the results depend on the processing

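For the 8 genes tested between genotypes at day 15, 100 of 112 alternative log2 fold changes kept their direction and their side of the threshold, 8 lost the call, 4 gained it and none reversed. In each of the comparisons of week 70 with a fetal group all 117 kept both. The count of the 9 genes called between genotypes, 6, was 3 with the length and GC correction and 3 with that correction and the replicate block together. It was between 6 and 7 when single libraries were left out. The week 70 counts were 9 under every alternative run. Called genes of the 54 in the lists ranged from 25 to 36 between genotypes, 48 to 52 with age, and 49 to 52 against WT day 15. Leaving out single libraries gave 30 to 33, 51 to 52 and 50 to 51. All genes called ranged from 9279 to 12542 (single libraries left out, 10998 to 11365), from 13833 to 18622 (15534 to 16923) and from 12842 to 16508 (14105 to 15366). Upper-quartile scaling shifted the median of all genes by -0.25 with age and by -0.13 against WT day 15.

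The main fit did not pair libraries by replicate number. At day 15 deviations of libraries with the same number correlated at -0.193, -0.297 and -0.317, and those with different numbers at 0.060 to 0.213. Deviations were taken from group means, which ties these values together, so they cannot settle whether the numbers pair the samples. With the replicate block alone 6 of the 9 genes were called between genotypes and 9 in each of the other comparisons. The low fetal counts of Mobp, Mag and Mal limit what the day 15 comparison can show: 2 counts of Mobp carry an exact Poisson 95% interval from 0.242 to 7.22, for counting error only.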

Other observations

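Tcf7l2 is made by maturing oligodendrocytes and also by neurons of the thalamus. It was at 274 ± 36.2 CPM in WT and 110 ± 3.76 CPM in KO at day 15 (SD, n = 3 each). At week 70 it had 121 counts in replicate 1 and 368 in replicate 2, whereas the ratios of the 9 genes between these libraries were 0.928 to 1.02. Its log2 fold change between week 70 and the fetal KO was -2.85 (SE 0.33, edgeR adjusted p = 1.71e-05).

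Mitf, a melanocyte factor, had 56, 43 and 66 counts in the day 15 KO and 230 and 206 at week 70. Dct, a pigment enzyme of the same list, went the other way, with 46, 54 and 42 counts and then 3 and 7, and Tyr was at 0 in all 8 libraries. Astrocyte genes (4 genes) summed to 82.0 to 96.4 CPM in the day 15 KO and to 1686 to 1797 CPM at week 70, and microglia genes (5 genes) to 20.5 to 23.4 and to 306 to 365.8 CPM, so markers of other glia were higher at week 70 beside the 9 genes. Neuron genes (6 genes) summed to 4315 to 4383 CPM and to 6217 to 6685 CPM, but the list was split. At week 70, 3 were higher without overlap (Snap25, Map2 and Rbfox3) and 3 lower (Tubb3, Stmn2 and Dcx). Mean levels went from 157 to 3810 CPM for Snap25 and from 1537 to 18.9 CPM for Dcx.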
